A study of Procambarus virginalis and Procambarus fallax with 9 samples.

Results

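The genes described here were abundant in the abdominal muscle of 2 crayfish species and nearly silent in the digestive gland of the 1 species in which both tissues were measured. They numbered 46 of the 21773 gene models in the deposited tables. A gene was taken when its level, in transcripts-per-million units (TPM, read counts corrected for gene length and scaled to the same sum in every library), was at least 10 in each of the 6 abdominal muscle libraries. Its mean over the 3 Procambarus virginalis muscle libraries had to lie from 20 to below 1000 TPM, and its mean over the 3 P. virginalis hepatopancreas libraries had to be at most 5% of that muscle mean. Finally, after each TPM was divided by the median TPM of its library, the highest of the 3 P. virginalis muscle values had to be less than 10 times the lowest. That library median was taken over 2597 reference genes, those with at least 1 TPM in all 6 muscle libraries.

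At the RNA level the study compared 2 species by their variation in expression, whereas their levels are also compared here. The species were the marbled crayfish P. virginalis, an all-female parthenogenetic clone, and P. fallax, its sexually reproducing parent species. RNA sequencing of TruSeq RNA v2 preparations gave 9 libraries in 3 groups of 3, namely hepatopancreas of P. virginalis animals 2, 6 and 7, abdominal musculature of the same 3 animals, and abdominal musculature from animals 1, 3 and 4 of P. fallax. The P. virginalis animals came from the Heidelberg laboratory strain, the P. fallax animals were females obtained through the aquarium trade, and the labels give no treatment. Ages were not given in the sources used here, hepatopancreas of P. fallax was not analysed here, and P. fallax reads were assigned to P. virginalis gene models.

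In decapods the abdomen is filled with striated flexor and extensor muscle, whose fast fibres drive the tail flip used for escape. Striated muscle builds its sarcomeres from thick filaments of myosin and thin filaments of actin with troponin and tropomyosin, and it relies on arginine kinase to buffer ATP. The hepatopancreas is the digestive gland, which makes digestive enzymes and stores lipid, and holds little striated muscle. The tables carry identifiers and no gene names, so 0 of the 46 members could be assigned to any of these roles, and the tissue labels could not be checked against marker genes. Members are therefore called by their rank, from 1 to 46, in mean muscle TPM of P. virginalis.

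Total assigned read counts ranged from 6001494 to 18661368 in P. virginalis muscle, from 9109577 to 11942816 in P. fallax muscle, and from 12947418 to 67369392 in hepatopancreas. A few genes took much of each muscle library, with the 34 muscle-restricted genes at or above 1000 TPM summing to 63.1% to 80.4% of all TPM. A single gene held 45.0% of the counts of P. virginalis 6 muscle. The P. virginalis 2 and 6 libraries were sequenced with shorter reads than P. virginalis 7 and the P. fallax libraries. Titles number separate animals, each with a single library per tissue. The spread within a group thus holds differences between animals and between libraries, which cannot be told apart here. In P. virginalis it also holds the difference in read length.

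The 46 members were selected by a chain of limits, among which that on the hepatopancreas removed the most genes after the first. The level of at least 10 TPM in every muscle library was met by 609 genes, and 463 of these had a mean within the permitted range. The hepatopancreas limit removed 412 of the 463, and the limit on the spread removed 5 more. At the hepatopancreas limit the nearest member lay at 4.83% of its muscle mean and the nearest gene outside at 6.14%. At the limit on the spread the nearest member had an 8.95-fold range and the nearest gene outside a 10.1-fold range. The highest mean among members was 839 TPM, against 1084 TPM for the nearest gene above the ceiling, and the lowest mean was 23.8 TPM, with no gene kept out by the floor alone. The lowest single muscle value of any member was 10.3 TPM, and 27 genes failed only this limit, the nearest at 9.70 TPM. For comparison, 400 genes that met every limit except that on the hepatopancreas served as comparison genes.

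Summed over the 46 members, the TPM in P. virginalis muscle was 7212, 5820 and 9611 in animals 2, 6 and 7. In P. fallax muscle the sum was 10398, 6033 and 11258 in animals 1, 3 and 4. In hepatopancreas of the same P. virginalis animals 2, 6 and 7 the sum was 74.5, 81.5 and 100.3. The mean was 7548 ± 1917 TPM (SD, n = 3) in P. virginalis muscle, 9230 ± 2802 TPM (SD, n = 3) in P. fallax muscle and 85.5 ± 13.3 TPM (SD, n = 3) in hepatopancreas. The 2 species overlapped, and every muscle library stood far above every hepatopancreas library. In such bulk tissue, fewer cells of a type and less RNA per cell cannot be told apart. The tissue gap was set by the choice of members and is a description. The members took 1.09% to 2.02% of all assigned reads in P. virginalis muscle and 2.07% to 3.01% in P. fallax muscle.

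**Figure D1:**
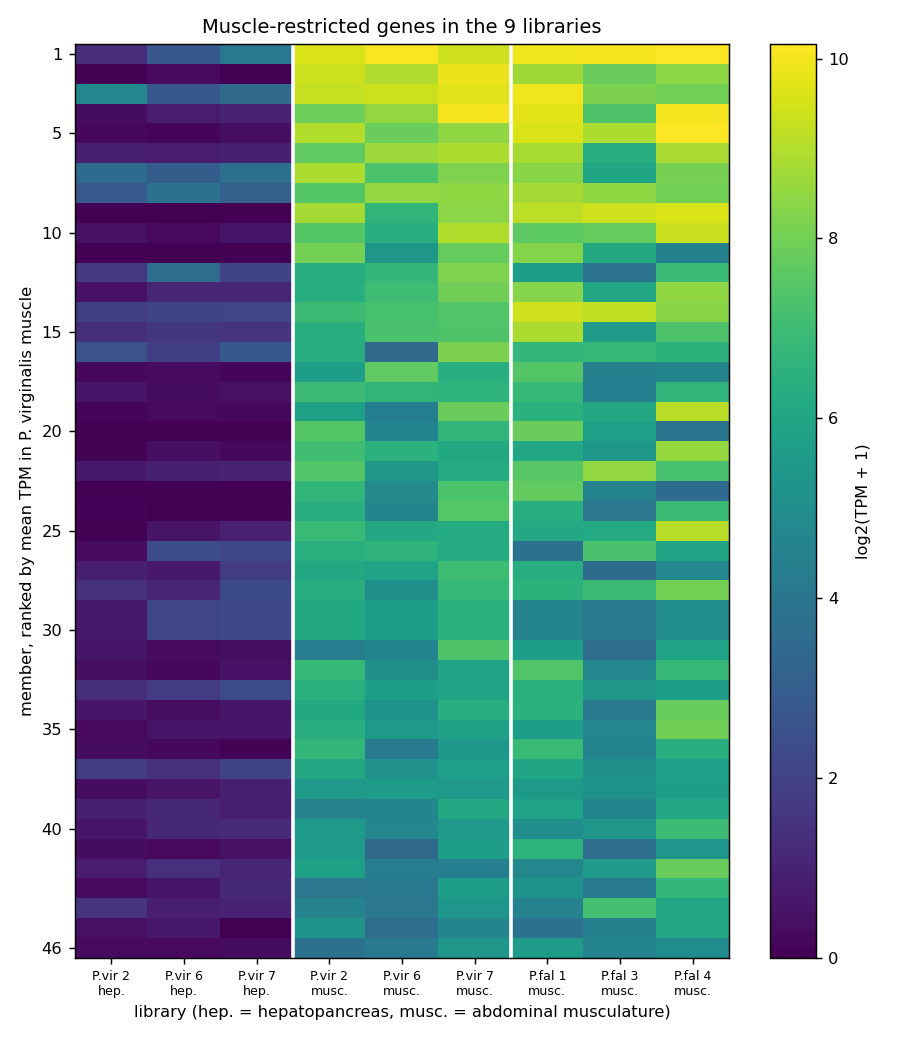
TPM of the 46 members (rows, by rank of mean TPM in P. virginalis muscle) in the 9 libraries (columns), coloured by log2(TPM + 1). The 3 hepatopancreas columns on the left are dark for nearly every member, whereas no value in the 6 muscle columns falls below 10.3 TPM. The summed level was 74.5 to 100.3 TPM in hepatopancreas and 5820 to 11258 TPM in muscle.

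The most abundant member, maker-scaffold21224-snap-gene-0.15 (672 nt), was abundant in all 6 muscle libraries. In P. virginalis muscle it reached 770.32, 1067.56 and 678.86 TPM in animals 2, 6 and 7. In P. fallax muscle it reached 987.40, 1054.10 and 1125.79 TPM in animals 1, 3 and 4. In hepatopancreas it stood at 1.47, 5.74 and 15.61 TPM in animals 2, 6 and 7. The species overlapped, and the hepatopancreas mean was 0.907% of the muscle mean. In counts-per-million values (CPM) scaled by TMM (trimmed mean of M values, edgeR's normalization) its muscle levels ranged more widely, from 274 in P. virginalis 7 to 1394 in P. virginalis 6. On plain TPM its coefficient of variation (SD over mean) between the 3 P. fallax animals, 6.56%, was the lowest among members. With TPM divided by the library median it was 32.7%, and 7 members lay lower.

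The second most abundant member, maker-scaffold198508-snap-gene-0.10 (789 nt), was almost undetected in hepatopancreas. It was listed at 0, 0.19 and 0 TPM in the hepatopancreas of animals 2, 6 and 7. This corresponds to an expected count of 2 in all, against a rounded 16846 in the muscle of the same animals. Its counts were not whole in the 6 muscle libraries, so some of its reads were shared with other models. Its muscle levels were 675.21, 488.42 and 942.14 TPM in P. virginalis animals 2, 6 and 7, and 420.04, 225.97 and 348.76 TPM in P. fallax animals 1, 3 and 4. The P. virginalis values all lay above the P. fallax values. Per library total, muscle exceeded hepatopancreas 22383-fold (95% exact conditional interval 6195 to 184841, which covers counting error only and not the division of shared reads). On counts the species difference was 1.64 ± 0.65 on the log2 scale (SE), with an adjusted p of 0.541 by edgeR's quasi-likelihood test.

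Depth of restriction varied widely within the rule's limit. The hepatopancreas mean had a median of 0.883% of the muscle mean over the 46 members, with 25 members below 1%, 7 below 0.1% and 10 from 3% to 5%. For 2 members, those of ranks 11 and 20, no read was assigned in any hepatopancreas library, and 40 members had reads in all 3. The rank 11 member had a rounded expected count of 4116 in P. virginalis muscle. Its level per library total was thus at least 3646-fold higher there, with 3 counts over the group as the floor. The rank 20 member, with a rounded expected count of 988, was at least 875-fold higher. The muscle counts of ranks 11 and 20 were not whole, so both bounds rest on divided reads. The rank 23 member had 1 hepatopancreas read against 5122 in muscle, a ratio of 13611 (95% exact conditional interval 2442 to 537717, counting error only). All of these 3 lie on the same scaffold.

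The tissue gap can also be described within animals and library by library, although the rule used all of these values. For all 46 members every one of the 6 muscle libraries stood above every hepatopancreas library, and the smallest ratio between the lowest muscle value and the highest hepatopancreas value was 1.21. Within animals, the median hepatopancreas level was 0.566%, 0.999% and 1.00% of the muscle level in animals 2, 6 and 7. The share passed 5% for 2 members in animal 2, for 9 in animal 6 and for 3 in animal 7. The widest case was the rank 16 member, at 25.4% in animal 6, where its muscle level was 10.51 TPM against 79.44 and 281.34 TPM in animals 2 and 7. The fitted log2 difference of muscle over hepatopancreas had a median of 8.39 over members, from 5.78 to 15.68, beside −0.17 over all genes fitted. The fitted values of the 2 members with no hepatopancreas read are not bounds, and placing both at their lower bounds leaves the median where it is.

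**Figure D2:**
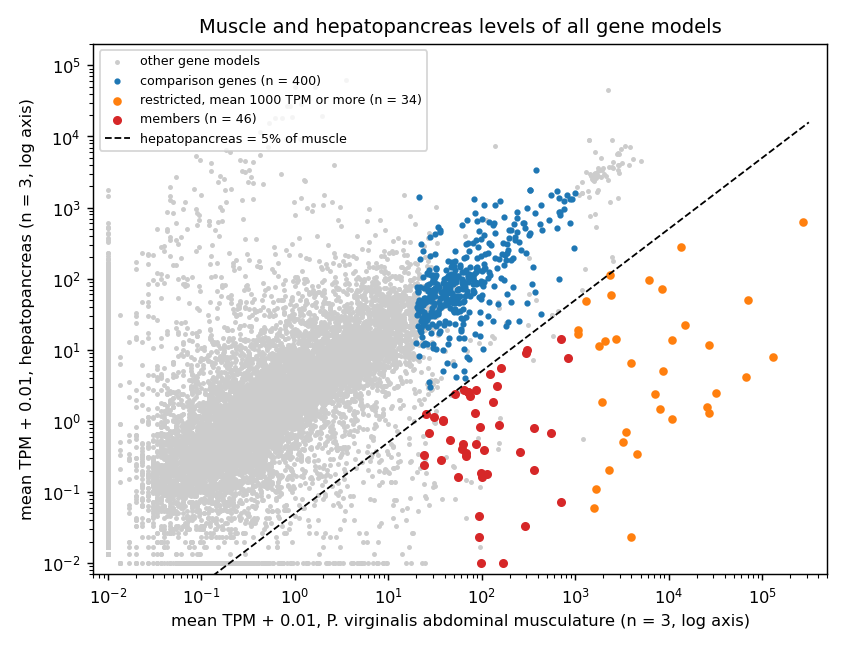
Mean TPM in P. virginalis hepatopancreas against mean TPM in P. virginalis muscle (same 3 animals, log axes, TPM + 0.01) for the 46 members, the 34 muscle-restricted genes at or above 1000 TPM, the 400 comparison genes and the other gene models. All members lie below the line at 5%, where the rule places them, and spread down to the 2 members with no hepatopancreas read, with a median of 0.883%.

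The order of the members by level was broadly alike in the 2 species. Species means ranged from 23.8 to 839 TPM in P. virginalis and from 23.1 to 1056 TPM in P. fallax, with medians of 94.0 and 100.2 TPM. Across the 46 genes, which are not independent replicates and share their libraries, Spearman's rho of the species means was 0.773 and Pearson's r of their log2 values was 0.809. Among the 400 comparison genes rho was 0.862. The species means lay within 2-fold of each other for 32 members, and the mean TPM was higher in P. fallax for 26. At least 100 TPM on average was reached by 19 members in P. virginalis and by 23 in P. fallax, with 16 in both.

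The comparison of the species asked which members differed in muscle RNA level between the clonal species and its parent. With edgeR's quasi-likelihood test across 5053 genes, 0 of the 46 members passed an adjusted p of 0.05, beside 1.25% of all genes tested (0.97% higher and 0.277% lower in P. virginalis). At an unadjusted p of 0.05 there were 4 members (ranks 2, 12, 29 and 30), all higher in P. virginalis, beside 3.76% of all genes in that direction, 3.74% in the other and 7.5% in either. Ranks 29 and 30 carry identical counts. With identical gene models counted once, a setting chosen after seeing the data, there were 3 of 45 members (6.67%), beside 7.32% of all genes in either direction. DESeq2 called 2 members, those of ranks 29 and 30, of the 45 to which it gave an adjusted p, beside 1.66% of all genes. The rule holds the P. virginalis mean between fixed bounds and the P. fallax level from below, so this contrast is only partly independent of how the members were chosen.

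The direction of the members as a group depended on the scaling. In counts scaled by TMM the log2 difference P. virginalis minus P. fallax had a median of 0.27 over members, from −1.27 to 2.28, beside −0.01 over all genes and 0.04 over the comparison genes. It was above 0 for 31 members and below 0 for 15, above 1 for 9 and below −1 for 2. The standard error of a single member had a median of 0.72, against 0.61 over all genes. On the plain TPM scale 26 of the 46 species means were higher in P. fallax, and with scaling by library size only the median became −0.29 over members and −0.59 over all genes. Relative to all genes the members' median was thus 0.29 with TMM factors and 0.30 with library sizes alone. Among the libraries of the read length that P. virginalis 7 shared with P. fallax, the members' median relative to all genes was −0.10, with 1 P. virginalis animal, and without P. fallax 1 it was 0.86. In simulated data of the same design, the test recovered 9% of genes changed by a log2 of 2 and 62% of those changed by a log2 of 3.

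**Figure D3:**
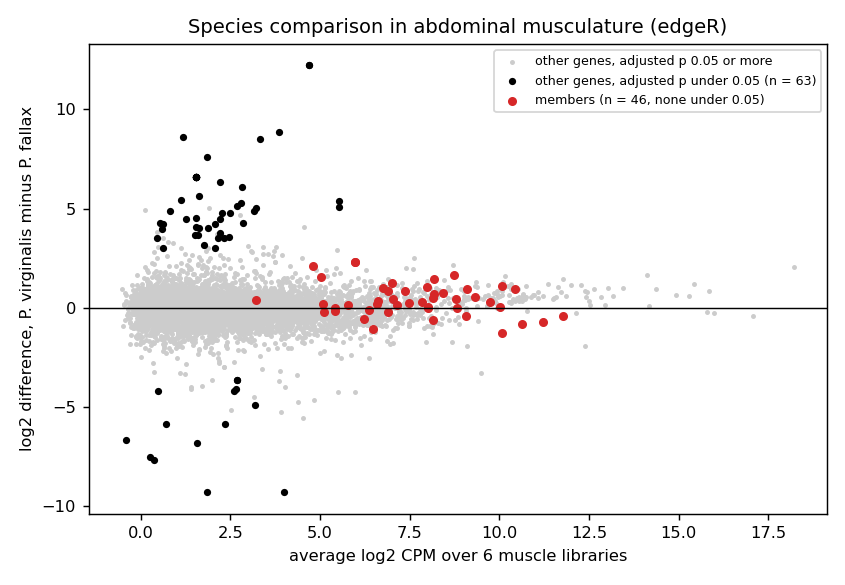
Log2 difference P. virginalis minus P. fallax in muscle (edgeR, 3 animals per species) against average log2 CPM (counts-per-million values), for all 5053 genes tested and the 46 members. Members scatter on both sides of 0 with a median of 0.27 under TMM factors (−0.29 with library sizes alone), and 0 of the 46 pass an adjusted p of 0.05.

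The largest difference belonged to 2 gene models that cannot be told apart by their reads. The models evm-scaffold10237-processed-gene-0.26 (rank 29) and evm-scaffold118570-processed-gene-0.2 (rank 30) are both 1151 nt long and carry identical expected counts in all 9 libraries, as when reads that fit both models are divided evenly. Each stood at 71.52, 50.04 and 89.84 TPM in P. virginalis muscle of animals 2, 6 and 7. Each stood at 22.73, 15.78 and 30.80 TPM in P. fallax muscle of animals 1, 3 and 4, and at 0.57, 3.36 and 3.75 TPM in hepatopancreas. Every P. virginalis muscle value lay above every P. fallax value, but the deposited 95% intervals of these TPM values were wide, with median half-widths over the muscle libraries of 90.3% and 91.2% of the value. The log2 difference was 2.28 ± 0.55 (SE), with an adjusted p of 0.10 by edgeR, and DESeq2 gave an adjusted p of 0.00185. Without the filter on low counts edgeR's adjusted p was 0.0460, a setting in which 2.49% of all genes were called. With library sizes alone the log2 difference was 1.65 (adjusted p 0.711 by edgeR). Limma gave 1.58 on log2(TPM + 1) and 1.62 on log2(TPM + 0.1) (adjusted p 0.664 and 0.676). On TPM scaled by the library median limma gave 2.25 (adjusted p 0.0806). With all 9 libraries in 1 model edgeR's adjusted p was 0.217. Among the libraries of the shared read length, with 1 P. virginalis animal, the log2 difference was 1.78. Leaving out each animal in turn gave log2 differences from 2.05 to 2.54. The 2 models count as 1 measurement, and copies of a gene cannot be told apart here from a sequence assembled more than once. The rank 40 member has the same length of 1151 nt but its own values, with a log2 difference of 0.13 ± 0.54 (SE).

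In all, 5 members (ranks 2, 12, 27, 29 and 30) had all 3 P. virginalis values above all 3 P. fallax values in TMM-scaled CPM, beside 5.03% of all genes. None had the reverse, beside 7.18% of all genes. Ranks 29 and 30 are the identical pair and count as 1 measurement. The rank 12 member (382 nt) had 78.72, 103.98 and 293.59 TPM in P. virginalis animals 2, 6 and 7, and 50.98, 13.83 and 121.07 TPM in P. fallax animals 1, 3 and 4. On TPM these species overlapped. Its log2 difference on counts was 2.12 ± 0.67 (SE), with an adjusted p of 0.310 by edgeR.

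The rank 27 member (562 nt) was called when P. fallax 1 was left out. Its levels were 68.39, 59.72 and 127.73 TPM in P. virginalis animals 2, 6 and 7, and 79.85, 11.15 and 26.01 TPM in P. fallax animals 1, 3 and 4. On TPM P. fallax 1 thus lay among the P. virginalis values and the other 2 below them. In TMM-scaled CPM the member stood at 38.1 in P. fallax 1, just below its lowest P. virginalis value of 39.2. Over all 6 libraries its log2 difference was 1.53 ± 0.78 (SE; adjusted p 0.719 by edgeR), and without P. fallax 1 it was 3.15 ± 0.64 (SE; adjusted p 0.0392 by edgeR, with 1.55% of all genes called). In that setting 12 members (26.1%) had an unadjusted p under 0.05, beside 12.8% of all genes.

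The largest difference toward P. fallax was at rank 14 (2763 nt). Its levels were 123.57, 147.78 and 168.63 TPM in P. virginalis animals 2, 6 and 7, and 682.31, 578.61 and 329.17 TPM in P. fallax animals 1, 3 and 4. On TPM all P. fallax values were higher, while in TMM-scaled CPM the P. virginalis 6 value of 1002 exceeded the P. fallax 4 value of 543. The log2 difference was −1.27 ± 0.77 (SE), with an adjusted p of 0.839 by edgeR. The other member below −1, at rank 44, had a log2 difference of −1.10 ± 0.71 (SE).

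Levels of the members were spread widely between animals of both species. The coefficient of variation of TPM over 3 animals had a median of 51.6% in P. virginalis and 68.9% in P. fallax, and was higher in P. fallax for 32 of the 46 members. Among the 400 comparison genes the medians were 45.1% and 53.3%, and 254 were higher in P. fallax. Over the reference genes the medians were 53.9% and 57.9%, so on plain TPM the members' median in P. virginalis lay below that of the reference genes. With each TPM divided by its library median, the members' medians were 48.1% and 69.3%, and those of the comparison genes were 37.7% and 37.2%. Those of the reference genes were 36.0% and 42.8%, and those of the 34 muscle-restricted genes at or above 1000 TPM were 49.3% and 64.9%. The rule set a direct limit on the spread in P. virginalis alone. Its floor of 10 TPM in every muscle library also kept out low values in both species. The comparison genes met that floor, whereas the reference genes met a floor of 1 TPM. The limit on the spread removed 5 genes, and 6 members had a scaled range of at least 10-fold between the P. fallax animals, the widest 43.3-fold. That share of 13.0% stood beside 1.75% of the comparison genes, 4.54% of the reference genes and 23.5% of the 34 more abundant muscle-restricted genes. The 6 members include ranks 11, 20 and 23, which lie on the same scaffold and are not independent. Ranks 11 and 20 appear to share reads. Without P. fallax 3 the members' median in P. fallax was 43.8%, and without P. virginalis 6 that in P. virginalis was 33.3%. These values rest on fewer animals and are not directly comparable with those over 3. The effect of a single animal cannot be told apart here from that of the smaller number. The difference between the species in variation was not tested.

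The highest coefficient of variation in P. fallax, 137% on TPM and 145% on TPM divided by the library median, belonged to maker-scaffold24892-exonerate_est2genome-gene-0.14 (rank 23, 1798 nt). It stood at 210.27 TPM in P. fallax 1, 23.31 in P. fallax 3 and 10.78 in P. fallax 4. In P. virginalis animals 2, 6 and 7 it stood at 101.82, 26.88 and 153.39 TPM. P. fallax 1 was the highest of the 6 libraries and P. fallax 4 the lowest.

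Members also shifted as a group from library to library. The median deviation of the 46 members from their own mean over the 6 libraries, less that of the reference genes, was 0.39, 0.35 and 0.00 on the log2 scale in P. virginalis animals 2, 6 and 7. It was 0.58 in P. fallax 1, −0.87 in P. fallax 3 and −0.57 in P. fallax 4. The P. fallax animals thus fell on both sides of the P. virginalis ones, with group means of −0.29 ± 0.76 (SD, n = 3) and 0.25 ± 0.21 (SD, n = 3). In TPM, 28 members had their lowest P. fallax value in P. fallax 3, and 24 had their highest in P. fallax 4 and 18 in P. fallax 1. With TPM divided by the library median the order changed, with 30 members highest in P. fallax 1 and 12 in P. fallax 4, and 21 lowest in P. fallax 3 and 18 in P. fallax 4.

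Other gene groups were set beside these shifts. For the 34 muscle-restricted genes at or above 1000 TPM the same deviation was 0.50, 0.77 and −0.02 in P. virginalis animals 2, 6 and 7, and 0.43, −0.55 and −1.0 in P. fallax animals 1, 3 and 4. The comparison genes stayed between −0.14 and 0.22. A set of 572 genes with a hepatopancreas mean of at least 20 TPM and a P. virginalis muscle mean of at most 5% of it summed to 607, 639 and 1076 TPM in the P. virginalis muscle libraries. Their sum was 1046 TPM in P. fallax 1, 3601 in P. fallax 3 and 2088 in P. fallax 4. On plain TPM the 2 libraries with the lowest member deviation thus held the most. The sums were not divided by the library median, whereas the deviations are relative to the reference genes. That median was 8.32, 9.33 and 18.49 TPM in P. fallax animals 1, 3 and 4, so the order can change with the scaling. The choice of the 572 genes bounded their level in P. virginalis muscle and not in P. fallax muscle. The gap between the species in these sums is therefore partly set by the choice. Of these 572 genes, 85 to 263 were listed at 0 in a given muscle library. The part of this signal in the member differences was not tested.

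**Figure D4:**
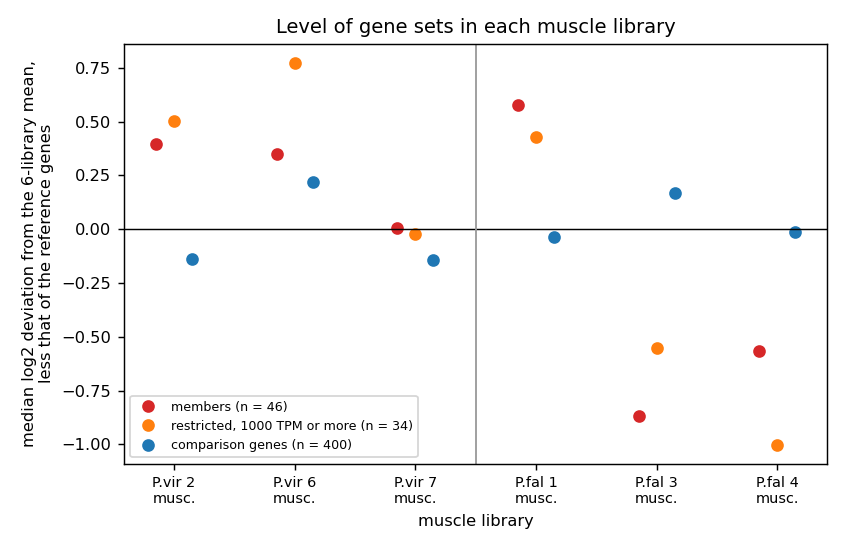
Median log2 deviation from each gene's own mean over the 6 muscle libraries, less the median of the reference genes, for the members, the 34 dominant muscle-restricted genes and the 400 comparison genes in each library. P. fallax 3 and 4 lie lowest for the members (−0.87 and −0.57) and P. fallax 1 highest (0.58), whereas the comparison genes stay between −0.14 and 0.22.

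Several properties that the rule did not use set the members beside the comparison genes. The median length was 1579 nt over the members, from 382 to 8185 nt, against 999 nt over the comparison genes and 1207 nt over the reference genes. At least 4000 nt was reached by 8 members (17.4%), by 9 comparison genes (2.25%) and by 4.51% of the reference genes. By the gene predictor named in the identifier, 32 members (69.6%) were maker models and 6 (13.0%) evm models, against 42.5% and 39.8% of the comparison genes. More than 1 transcript model was listed for 3 members (6.52%), 1.75% of the comparison genes and 1.89% of the reference genes. Among the 34 more abundant muscle-restricted genes that share was 5.88%, near that of the members. In 12 members (26.1%) at least 1 muscle library had a count that was not whole, meaning that some reads were shared with other models, against 10.5% of the comparison genes, 15.4% of the reference genes and 55.9% of the 34 more abundant muscle-restricted genes. These shares were not tested, and lengths are those of gene models in a draft assembly. The deposited 95% interval of a member's TPM had a median half-width of 3.57% to 6.93% of the value per muscle library, and of 29.2% to 52.3% per hepatopancreas library, the identical pair lying far above this.

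The members lay on 42 scaffolds, the unplaced pieces of the assembly. Of these, 3 scaffolds held more than 1 member, 7 members in all, and 14 members were the only model in the tables on their scaffold. Around the members lay 59 other models on 26 scaffolds, of which 34 had a mean of at least 1 TPM in P. virginalis muscle. Of those 34 expressed neighbours, 17 (50%) had a hepatopancreas mean of at most 5% of the muscle mean, on 9 scaffolds. Among all models other than members expressed in muscle on scaffolds with more than 1 model, these neighbours included, the share was 143 of 3195 (4.48%). Among expressed neighbours of comparison genes it was 13 of 294 (4.42%). The neighbours included 7 of the 34 dominant muscle-restricted genes. Without scaffold 13976 the share was 13 of 29 (44.8%), and without scaffolds 13976 and 1659 it was 9 of 25 (36%). These shares were not tested, nor was whether neighbouring models are parts of 1 gene.

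Scaffold 13976 held 2 members, of ranks 5 (5535 nt) and 9 (4564 nt), and 4 muscle-restricted neighbours, 3 of which averaged more than 1000 TPM. The rank 5 member stood at 508.83, 226.05 and 358.50 TPM in P. virginalis animals 2, 6 and 7 and at 764.95, 475.44 and 1145.75 TPM in P. fallax animals 1, 3 and 4. The rank 9 member stood at 440.65, 100.60 and 332.25 TPM and at 571.45, 696.29 and 762.22 TPM in the same animals. On TPM both were lowest in P. virginalis 6, the library with the lowest median over the reference genes, 4.00 TPM against 7.17 and 11.96 in animals 2 and 7. In TMM-scaled CPM the rank 5 member was lowest in P. virginalis 7, at 1585, and the rank 9 member stood at 1156 in P. virginalis 6 and 1203 in P. virginalis 7. A neighbour of 5190 nt reached 12565, 3639 and 7931 TPM in P. virginalis and 14557, 12199 and 15792 TPM in P. fallax. A neighbour of 11017 nt averaged 3228 TPM in P. virginalis and 5628 TPM in P. fallax.

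The 3 members of scaffold 24892 (ranks 11, 20 and 23) had broadly similar profiles over the muscle libraries and 1 hepatopancreas read in all. From P. virginalis 2 to 7, however, rank 20 fell from 173.39 to 99.09 TPM, while rank 23 rose from 101.82 to 153.39 TPM. The rank 11 member (849 nt) stood at 258.59, 40.15 and 213.21 TPM in P. virginalis animals 2, 6 and 7, and at 309.70, 71.44 and 20.82 TPM in P. fallax animals 1, 3 and 4. Its ratio to the rank 20 member (444 nt) stayed between 1.36 and 2.15 over the 6 libraries, a 1.59-fold span. The expected counts of ranks 11 and 20 were not whole in these 6 libraries. Their fractions completed each other, as with 2493.72 and 662.28 in P. virginalis 2. This is as when reads that fit both models are divided between them, so the ratio may partly reflect that division. The other 2 ratios of the trio spanned 2.20-fold and 3.50-fold. Over all 1035 pairs of members the median span was 10.4-fold, and 47 pairs (4.54%) spanned less than 3-fold. The pair on scaffold 13976 spanned 3.29-fold and the pair on scaffold 68141 (ranks 12 and 18) spanned 6.90-fold.

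On scaffold 1659 a single member, rank 32 (4608 nt), stood beside 4 muscle-restricted models that missed the rule's limits on the muscle level. The member had 111.59, 31.74 and 60.15 TPM in P. virginalis animals 2, 6 and 7, and 167.84, 25.53 and 110.60 TPM in P. fallax animals 1, 3 and 4. The 4 neighbours averaged from 7.93 to 27.0 TPM in P. virginalis muscle and at most 0.0567 TPM in hepatopancreas. In TMM-scaled CPM the member stood at 741, 368 and 219.9 in P. virginalis animals 2, 6 and 7, so that its lowest clonal library was P. virginalis 7, against P. virginalis 6 on TPM.

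Abundant muscle-restricted models also lay beside both members of the identical pair. On scaffold 118570, models of 438 nt and 2899 nt averaged 10880 and 4560 TPM in P. virginalis muscle, and on scaffold 10237 a model of 552 nt averaged 1084 TPM. In P. fallax muscle these 3 averaged 18365, 3641 and 924 TPM. The 438 nt neighbour thus had a higher mean in P. fallax, and the other 2 a lower one.

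**Figure D5:**
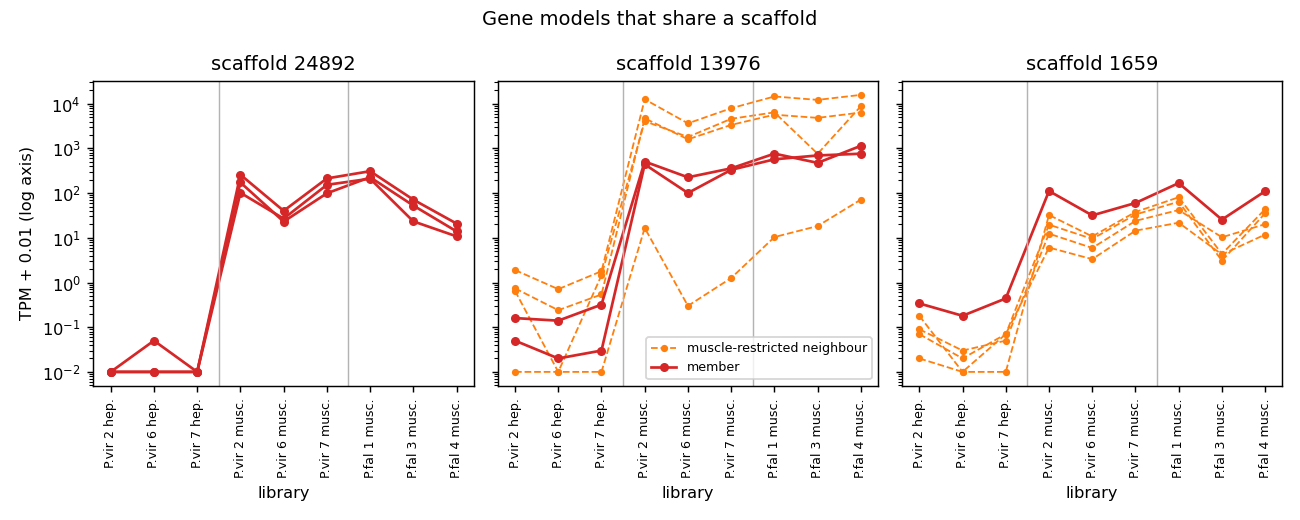
TPM + 0.01 (log axis) in the 9 libraries of the members (solid lines) and other muscle-restricted models (dashed lines) on scaffolds 24892, 13976 and 1659. The 3 members on scaffold 24892 have broadly similar profiles, from 309.70 TPM in P. fallax 1 down to 20.82 TPM in P. fallax 4 for the rank 11 member. Ranks 11 and 20 appear to share reads. The P. virginalis 6 library had the lowest median over the reference genes, 4.00 TPM. In TMM-scaled CPM the 3 members on scaffold 24892 were also lowest in P. virginalis 6 among the P. virginalis libraries. For rank 11 the values were 259, 71.0 and 117 in animals 2, 6 and 7. The rank 32 member on scaffold 1659 was lowest in P. virginalis 7 on that scale.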

How the data were processed

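Libraries were grouped by species and tissue from the labels, with 3 animals in each of 3 groups. The authors assigned reads to P. virginalis gene models and deposited, per gene, expected counts, TPM, FPKM and posterior mean TPM with 95% interval bounds. The submitters' processing notes name HISAT2 2.0.4 and RSEM 1.2.30, with no role given. Neither a genome build nor a gene model release nor strandedness is given in the sources used here. The series' design text and the labels differ in the number of animals, and the labels were used. The deposited expected counts, not whole for 6.40% to 30.9% of genes per library, were rounded before count tests, so reads of near-identical models were already divided between them. P. fallax reads that differ from the P. virginalis models could be lost, and lengths in the deposited TPM and FPKM are those of the models.

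The members, lists and alternatives were chosen with earlier results of these data known. The species were compared with edgeR 4.0.16 (TMM factors, filterByExpr, quasi-likelihood test, R 4.3.3) on the 6 muscle libraries, with Benjamini-Hochberg adjustment over 5053 genes and a threshold of 0.05. DESeq2 1.42.0 and limma 3.58.1 on log2(TPM + 1) and log2(TPM + 0.1) were alternatives, as were other scalings, no filter, the shared read length and leaving out each library. The 5053-gene test was checked on simulated counts, with 4 false calls among 75. The tissue contrast and the spread in P. virginalis chose the members, and no test of them is reported. Neighbours were gene models with the same scaffold in their identifier.

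Named were the 2 members with the highest muscle mean, the 2 with the largest species difference and no overlap in each direction (none lower in P. virginalis), and the highest and lowest coefficient of variation in P. fallax. Other members are given by rank, and those described for their scaffold, length or direction were picked after their values were seen. The lists of muscle, hepatopancreas, blood cell, nerve and epidermis markers could not be used, since no table pairs identifiers with names, and sequences were not used here. Muscle and hepatopancreas of P. virginalis share animals by their titles. Deviations of same-animal libraries from their group means correlated at −0.060, 0.284 and −0.089, against −0.256 to 0.244 between animals.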

Additional observations from a re-analysis of the deposited data

How the results depend on the processing

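Of the alternatives run, all called members were higher in P. virginalis. Genes called higher and lower in P. virginalis over all genes numbered 49 and 14. They numbered 37 and 35 with library sizes alone, 155 and 152 without the filter on low counts, 88 and 33 with DESeq2, 28 and 29 with limma on log2(TPM + 1), and 31 and 32 on log2(TPM + 0.1). On TPM scaled by the library median, chosen after seeing the data, they numbered 40 and 7, and with the libraries of the shared read length 0 and 0. With identical gene models counted once, also chosen after seeing the data, they numbered 37 and 12. Leaving out each library gave 24 to 60 higher and 5 to 25 lower. Members called numbered 2, the identical pair, without the filter and with DESeq2, and 0 to 1 when a library was left out. Members with an unadjusted p under 0.05 numbered 4 (7.5% of all genes), against 1 with library sizes alone (7.28% of all genes), 2 with limma on log2(TPM + 1) and on log2(TPM + 0.1) (8.15% and 7.66% of all genes) and 3 to 12 when a library was left out (5.5% to 12.8% of all genes). The members' median log2 difference relative to all genes was 0.29, and 0.10 to 0.86 when a library was left out.

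For the tissues, the fitted median of members relative to all genes was 8.56, 9.47 without the filter, and 8.36 to 8.98 without each animal, when 41 to 46 members kept a hepatopancreas mean of at most 5%. With the animal as a replicate block it was 8.53, and no call is reported for this contrast, which chose the members. The species share no animal number, so no paired fit was possible there. Without each animal the median coefficient of variation was 33.3% to 45.0% in P. virginalis and 43.8% to 70.2% in P. fallax. The cause of these shifts was not tested. With 3 animals a group the median standard error of a member's log2 difference was 0.72, which limits what the species comparison could detect.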

Other observations

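Of the 5 genes left out for their spread in P. virginalis muscle alone, 2 also varied strongly between the P. fallax animals. A model of 1041 nt stood at 17.3, 647.27 and 383.18 TPM in muscle of P. virginalis animals 2, 6 and 7, and at 1093, 11.94 and 13.06 TPM in P. fallax animals 1, 3 and 4. A model of 854 nt stood at 34.81, 1060 and 661.04 TPM in the same P. virginalis animals, and at 1942, 47.33 and 20.32 TPM in the same P. fallax animals. Both were high in P. virginalis 6 and 7 and in P. fallax 1, and low in the other 3 libraries. Their scaled ranges in P. virginalis were 67.1-fold and 54.6-fold, against 10.1-fold to 11.7-fold for the other 3, whose TPM ranged 2.5-fold to 4.4-fold between the P. fallax animals.

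On scaffold 13976, which holds 2 members and 3 of the dominant muscle-restricted models, a model of 628 nt showed the opposite tissue pattern. It stood at 483.85, 88.95 and 48.67 TPM in hepatopancreas of animals 2, 6 and 7 and was listed at 0 in all 6 muscle libraries. Over all scaffolds with members, 3 neighbours were restricted to hepatopancreas by the same limit of 5%.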
